A study of Mus musculus with 8 samples.

Results

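The genes that write, erase and read histone acetylation were followed in labelled RNA of mouse embryonic stem cells whose histone H3.3 carries the K122A substitution. The set holds 40 genes of the 16896 listed in any of the authors' 4 comparisons. The choice was made by name and function, with earlier results of these data known. They comprise 14 acetyltransferases and partner subunits (Ep300 to Tada3), 18 deacetylases (11 Hdac and 7 Sirt genes) and 8 bromodomain readers (Brd and Brpf genes). All 40 were listed in each of the 4 tables. The assay was TT-seq, in which a short pulse of 4-thiouridine (4sU) marks RNA made during the pulse so that it can be purified and sequenced. The cells were E14, a male mouse embryonic stem cell line, and every group received 500 nM 4sU for 5 min.

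The 8 libraries formed 3 groups by how many of the 4 H3.3 alleles (H3f3a and H3f3b) encoded alanine at residue 122. Wildtype cells gave 3 libraries. The single-targeted group comprised 2 lines with 2 mutant alleles. In 1 of them both alleles of the first gene were mutant (H3f3a A/A H3f3b WT/WT), and in the other both of the second (H3f3a WT/WT H3f3b A/A). In the dual-targeted group 3 lines had 3 mutant alleles, namely 2 clones of H3f3a A/A H3f3b WT/A and a line of the reverse genotype (H3f3a WT/A H3f3b A/A), called the reverse line here. No group lacked wildtype alleles altogether, and each mutant line was profiled in 1 library, so a difference of 1 line cannot be told apart from a difference of its genotype. The protocols describe medium with LIF and medium with LIF and 2 kinase inhibitors, and do not say which one these cells were in.

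Acetyl groups on histone lysines are added by acetyltransferases, which often work inside large complexes, and are removed by zinc-dependent histone deacetylases or by NAD-dependent sirtuins. Bromodomains bind acetyl-lysine and bring remodelling or transcription complexes to acetylated chromatin. Lysine 122 lies on the lateral surface of the nucleosome, where H3 touches DNA, and is itself a substrate of the coactivator acetyltransferases encoded by Ep300 and Crebbp.

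The values were the authors' deposited tables of DESeq2 comparisons, each with a mean normalized count, a log2 fold change with its standard error (SE), a p and an adjusted p per gene. Values per library were not analysed here, so depth per library is unknown and overlap between the libraries of a group cannot be read. Group means were instead rebuilt from the 4 mean counts of each gene and carry no error. Of the embryonic stem cell markers 12 of 12 were listed, with rebuilt wildtype means of 306 to 4552 and summed levels of 22745 in wildtype, 24592 in single-targeted and 28653 in dual-targeted cells. Of the fibroblast and feeder markers 4 of 10 were listed (Col1a1, Col1a2, Col3a1, Dcn, Lum and Postn were not), and their summed level of 9629, 6845 and 4861 in the same order was nearly all Fn1, at 9398, 6647 and 4463. Of the endoderm markers 3 of 6 were listed, and the 2 of them with a rebuilt mean in every group (Gata4 and Dab2) summed to at most 45.5. Neural markers (6 of 6 listed) summed to 529, 523 and 732. Within these sums the markers did not move together. In dual-targeted cells Nes (37.7 in wildtype, 205), Tubb3 (84.7, 192) and Neurod1 were above wildtype, and Pax6, Sox1 and Map2 below it. Vim (197 in wildtype, 354) and Thy1 were above wildtype there, and Fn1 and Pdgfra below it. Of the stem cell markers Esrrb and Zfp42 were below wildtype there, and the rest above it. The part of these marker differences in the members' values was not tested. In bulk RNA, fewer cells of a type and less RNA per cell cannot be told apart.

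Before any comparison, the members spanned a wide range of labelled RNA in wildtype cells. Per kb of gene, rebuilt wildtype means ran from 0.030 normalized counts for Hdac9, a class IIa deacetylase, to 384 for Brd2, a reader of the BET family, with a median of 20.5. The same genes were lowest and highest per kb of exon, at 1.78 and 520. Median levels per kb of gene were 22.2 for acetyltransferases, 12.5 for deacetylases and 35.5 for readers. Gene lengths ran from 5394 to 869516 bases, and 24 of the 40 members overlapped another annotated gene, 17 of them one on the opposite strand.

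Dual-targeted lines were compared with wildtype cells to ask which genes differed once 3 of 4 H3.3 alleles were mutant. Of the 40 members, 2 fell and 0 rose in the authors' deposited table (adjusted p under 0.05). Both genes that fell were deacetylases, Hdac11 and Sirt3. Among all 16493 genes tested, 20.9% were called, 10.8% higher and 10.1% lower. Members had higher counts than most genes, with a median mean count of 560 against 144, and of all genes with a mean count of at least 50 a share of 23.6% was called. At an unadjusted p under 0.05, the DESeq2 table held 1 member higher and 6 lower, beside 32.7% of all genes. The median log2 fold change of the members was -0.03, with 17 positive and 23 negative values, against 0.0057 over all genes.

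**Figure D1:**
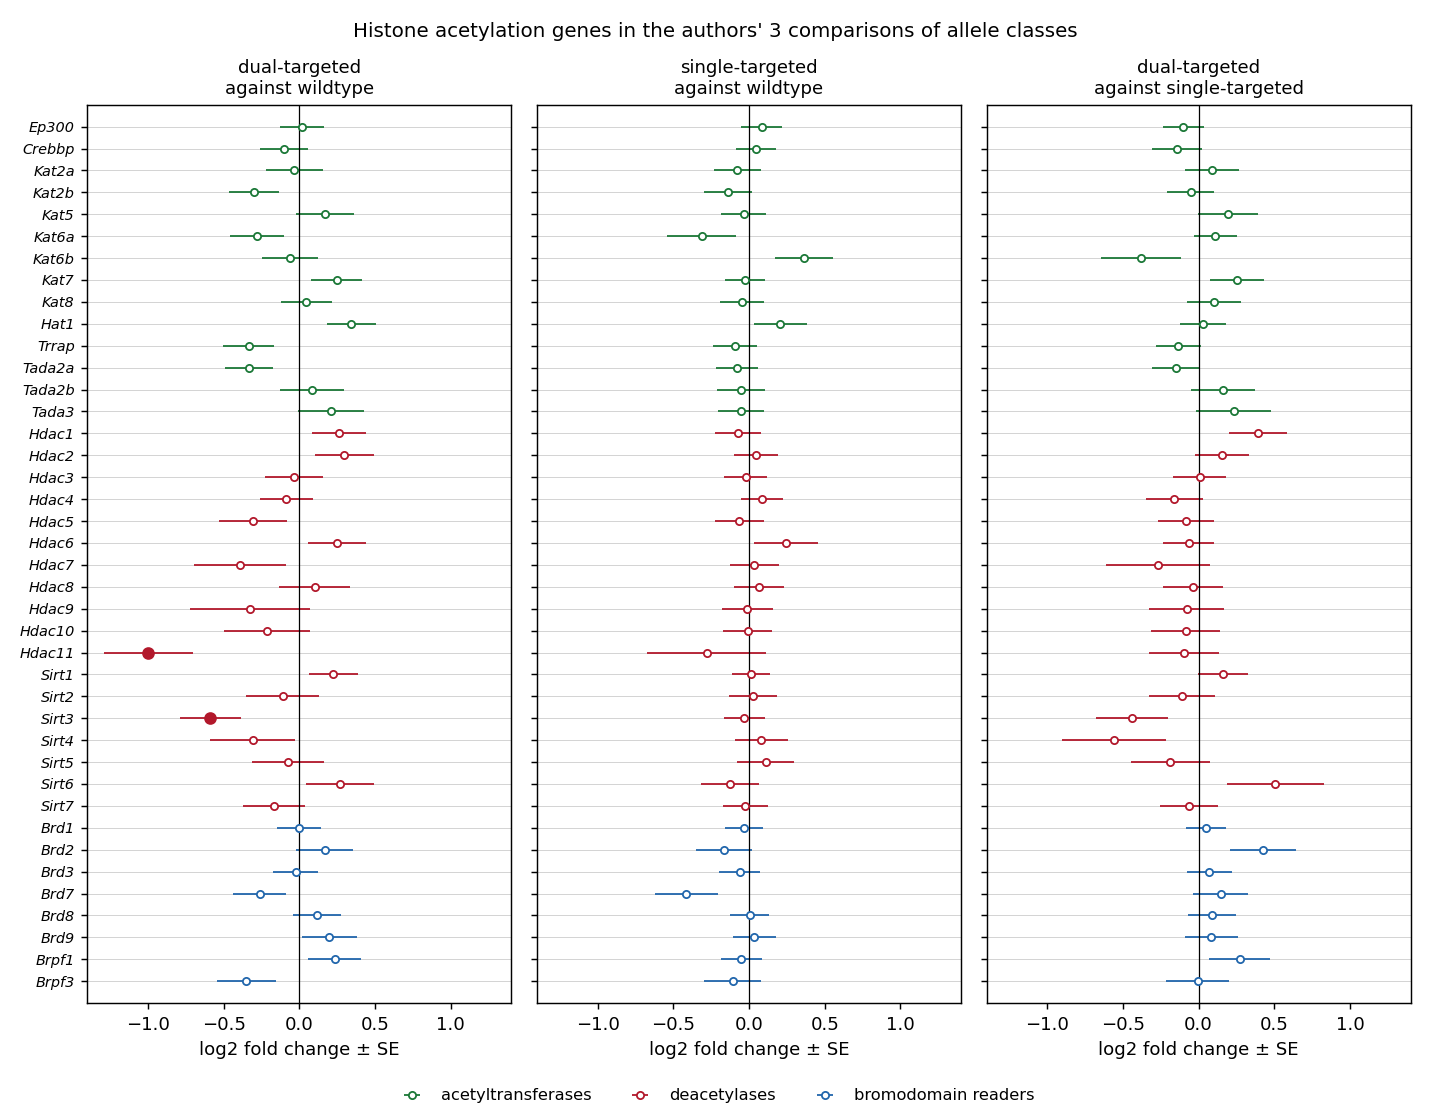
Log2 fold change ± SE (x axis) of each of the 40 members (y axis) in the authors' deposited tables, in 3 panels for dual-targeted lines over wildtype, single-targeted lines over wildtype and dual-targeted over single-targeted lines, coloured by subgroup. Filled points have an adjusted p under 0.05. They are Hdac11 and Sirt3 in the first panel, and the other panels have none.

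The 95% interval of the fold change lay within 2-fold in both directions for 38 of the 40 members, and for 71.6% of all genes. The exceptions were Hdac11, whose own value of -0.997 (interval -1.57 to -0.42) lay near 2-fold, and Hdac9, at -0.33 (interval -1.10 to 0.45). Their mean counts were 80.9 and 20.9 in the authors' deposited table. Within 1.5-fold the count was 21 of 40. Members outside these bounds were not measured closely enough to place them on either side.

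**Figure D2:**
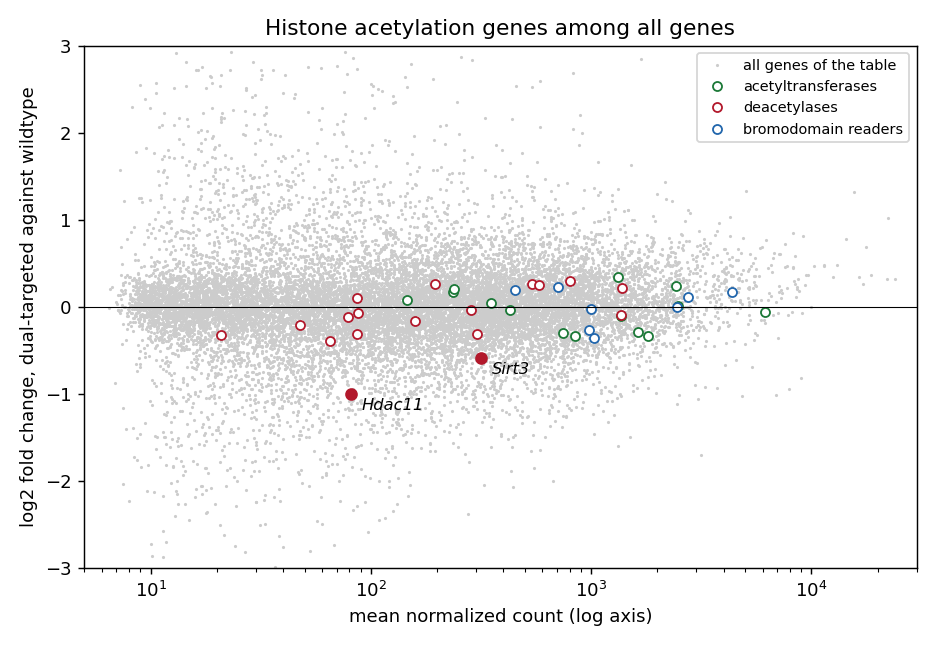
Log2 fold change of dual-targeted lines against wildtype (y axis) over the mean normalized count (x axis, log scale) in the authors' deposited table, with all genes in grey and the 40 members as coloured circles, filled where called. Of 16498 genes, 53 lie outside the axes. Hdac11 and Sirt3 are the lowest members, and the others lie between -0.39 and 0.34.

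Hdac11 encodes the only class IV deacetylase, an enzyme that removes long fatty acyl groups from lysine. It lies on chromosome 6 from 91156665 to 91174692 on the plus strand (GRCm38, ENSMUSG00000034245.10). It overlaps 2 annotated genes on the opposite strand, Gm14573 by 544 bases and Gm44002 by 594 bases, neither listed in the dual-targeted table, and no source used here says whether counting used strand. Its rebuilt mean was 111 normalized counts in wildtype, 65.7 in single-targeted and 50.6 in dual-targeted cells. Both mutant groups were below wildtype. The dual-targeted mean was 45.5% of wildtype, and the single-targeted mean was 59.1%. In the authors' deposited table the dual-targeted log2 fold change was -0.997 ± 0.29 (SE, 95% interval -1.57 to -0.42, DESeq2 adjusted p = 0.00117). The single-targeted value in the authors' deposited table was -0.28 ± 0.39 (DESeq2 adjusted p = 0.288, unadjusted 0.0273), a wide interval of -1.05 to 0.49. The comparison of dual-targeted with single-targeted lines gave -0.10 ± 0.23 (adjusted p = 0.657) in the authors' deposited table, so a difference between the mutant groups was not detected. The rebuilt Hdac11 mean was below wildtype in both dual-targeted genotypes, with 48.8 counts in the clones and 54.2 in the reverse line.

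Sirt3 encodes the main deacetylase of the mitochondrial matrix, so its product acts mostly on metabolic enzymes and not on chromatin. It lies on chromosome 7 from 140863666 to 140882309 on the minus strand (GRCm38, ENSMUSG00000025486.17). Rebuilt means were 390 in wildtype, 372 in single-targeted and 245 in dual-targeted cells. Single-targeted cells thus stood near wildtype at 95.5% of it, and dual-targeted cells at 62.8%. In the authors' deposited table the dual-targeted log2 fold change was -0.59 ± 0.20 (DESeq2 adjusted p = 0.0081). The authors' deposited table gave -0.03 ± 0.14 for single-targeted lines (adjusted p = 0.935) and -0.44 ± 0.24 for dual-targeted against single-targeted lines (adjusted p = 0.0944). The last value missed the threshold, so a difference between the mutant groups was not shown. Sirt3 overlaps 2 genes on the opposite strand, Psmd13 by 342 bases and Ric8a by 707 bases. Reads in these stretches may be shared, since the use of strand is not known. Psmd13 stood at 0.23 ± 0.17 (adjusted p = 0.288) and Ric8a at 0.11 ± 0.18 (adjusted p = 0.695) in the authors' deposited table for dual-targeted lines.

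Of the other sirtuins, none was called in any of the 4 tables. The mitochondrial Sirt4 had rebuilt means of 100.5 in wildtype, 128 in single-targeted and 72.1 in dual-targeted cells. Its log2 fold change of dual-targeted against single-targeted lines was -0.56 ± 0.34 (DESeq2 adjusted p = 0.0908) in the authors' deposited table. Sirt6, a nuclear deacetylase that acts on histone H3, was placed the other way, at 172, 133 and 218 counts, with 0.51 ± 0.32 (adjusted p = 0.099) in the authors' deposited table. Both were singled out after their values were seen. The remaining sirtuins of that comparison lay between -0.19 (Sirt5) and 0.16 (Sirt1) in the authors' deposited table.

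Hdac1 and Hdac2 encode the paired catalytic subunits of the Sin3, NuRD and CoREST complexes. Hdac1 had rebuilt means of 481 in wildtype, 429 in single-targeted and 596 in dual-targeted cells. The log2 fold changes of Hdac1 in the authors' deposited table were 0.26 ± 0.18 in dual-targeted lines against wildtype (adjusted p = 0.25) and 0.39 ± 0.19 against single-targeted lines (adjusted p = 0.0844). Hdac2 had 707, 771 and 905 counts, and 0.30 ± 0.19 (adjusted p = 0.211) in the authors' deposited table for dual-targeted lines against wildtype. Neither gene passed the threshold in any table. Median log2 fold changes in dual-targeted lines were -0.09 over the 11 Hdac genes and -0.11 over the 7 Sirt genes.

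Acetyltransferases were called in 0 of 14 cases in each of the 4 DESeq2 tables. Among all genes tested the called share was 20.9% in dual-targeted and 2.96% in single-targeted lines. It was 7.06% in dual-targeted against single-targeted lines and 19.3% in the clones. In dual-targeted lines the log2 fold changes of the acetyltransferases ran from -0.33 (Trrap) to 0.34 (Hat1) in the authors' deposited table, with a median of -0.01. At an unadjusted p under 0.05, 1 was higher and 3 were lower there, 1 and 1 in single-targeted lines, 0 and 1 in dual-targeted against single-targeted lines, and 0 and 1 in the clones. The shares of all genes at that p were 32.7%, 12.4%, 20% and 30.4% in the same order. Hat1, which acetylates newly made histone H4 before its deposition, had rebuilt means of 1147, 1461 and 1495 in wildtype, single-targeted and dual-targeted cells, and 0.34 ± 0.16 (adjusted p = 0.0779) in the authors' deposited table. Trrap, the large scaffold shared by the SAGA and TIP60 complexes, had means of 2068, 1815 and 1574, and -0.33 ± 0.17 (adjusted p = 0.0989) in the authors' deposited table. Hat1 and Trrap were picked as the ends of the range after the values were seen.

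Ep300 and Crebbp, the paralogous coactivators that acetylate lysine 122, were close to wildtype. Ep300 had rebuilt means of 2475 in wildtype, 2776 in single-targeted and 2493 in dual-targeted cells, and its dual-targeted log2 fold change was 0.02 ± 0.15 (95% interval -0.27 to 0.30, adjusted p = 0.948) in the authors' deposited table. Crebbp had 1433, 1539 and 1312 counts, with -0.10 ± 0.16 (interval -0.41 to 0.21, adjusted p = 0.683) in the authors' deposited table. For both genes these intervals, built from shrunken fold changes, lay well within 2-fold. Kat2a and Kat2b, the alternative catalytic subunits of SAGA and ATAC, had -0.03 ± 0.19 (adjusted p = 0.916) and -0.30 ± 0.17 (adjusted p = 0.147) in the authors' deposited table. Tada2a, an adaptor of ATAC, had -0.33 ± 0.16 (adjusted p = 0.0900), and Tada2b, its counterpart in SAGA, 0.09 ± 0.21 (adjusted p = 0.778) in the authors' deposited table. Differences within these pairs were not tested.

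Kat6a and Kat6b, catalytic subunits of the MOZ and MORF complexes, lay on opposite sides of wildtype in single-targeted lines, and neither passed the threshold. Kat6a had rebuilt means of 1833 in wildtype, 1316 in single-targeted and 1445 in dual-targeted cells. Kat6b had 6320, 8852 and 5954. In the authors' deposited table for single-targeted lines, Kat6a stood at -0.31 ± 0.23 (adjusted p = 0.249) and Kat6b at 0.36 ± 0.19 (adjusted p = 0.133). Kat6a lies on chromosome 8, where the median gene with a mean count of at least 50 had, in the authors' deposited tables, a log2 fold change of -0.21 in single-targeted and -0.32 in dual-targeted lines. Kat6b lies on chromosome 14, where these medians were -0.06 and -0.25. The part of the chromosome-wide difference in the value of either gene was not tested. By rebuilt means, which carry no error, Kat6b had 6576 counts in the clones and 4712 in the reverse line, a difference that was not tested. In the clones the chromosome 14 median was -0.51 and Kat6b stood at 0.05 ± 0.20 (DESeq2 adjusted p = 0.87) in the authors' deposited table.

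The 8 bromodomain readers were called in 0 cases in each DESeq2 comparison of the 3 groups, and in 1 case, Brpf3, when the clones alone were set against wildtype. Of all genes, 20.9% were called in dual-targeted lines, 2.96% in single-targeted lines, 7.06% in dual-targeted against single-targeted lines and 19.3% in the clones. At an unadjusted p under 0.05, 1 reader was lower in dual-targeted lines (Brpf3), 1 was lower in single-targeted lines (Brd7), and 1 was higher in dual-targeted against single-targeted lines (Brd2). The shares of all genes at that p were 32.7%, 12.4% and 20% in the same order. Brd2 and Brd3 encode BET proteins, which hold transcription regulators on acetylated chromatin. Brd2 had rebuilt means of 4071 in wildtype, 3248 in single-targeted and 4696 in dual-targeted cells. Its log2 fold change was 0.17 ± 0.19 (adjusted p = 0.512) against wildtype and 0.43 ± 0.22 (adjusted p = 0.0840) against single-targeted lines in the authors' deposited tables. Brd3 had 1007, 927 and 983 counts, with -0.02 ± 0.15 (adjusted p = 0.934) in the authors' deposited table for dual-targeted lines. Brd9, a subunit of the non-canonical BAF complex, had 413, 443 and 486 counts, with 0.20 ± 0.18 (adjusted p = 0.418) in the authors' deposited table. Brd7, of the PBAF complex, was lowest in single-targeted lines, at 748 counts against 1084 in wildtype and 869 in dual-targeted cells. The single-targeted value of Brd7 in the authors' deposited table was -0.41 ± 0.21 (adjusted p = 0.101), and Brd7 too lies on chromosome 8.

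Brpf3 and its paralogue Brpf1 encode scaffolds that join acetyltransferases of the MOZ, MORF and HBO1 complexes to chromatin. Brpf3 lies on chromosome 17 from 28801090 to 28839949 on the plus strand (GRCm38, ENSMUSG00000063952.16). It overlaps 2 annotated noncoding genes on the opposite strand, by 534 and 615 bases, neither listed in the dual-targeted table, so the limit on strand given for Hdac11 holds here too. Its rebuilt means were 1177 in wildtype, 900.5 in single-targeted and 875 in dual-targeted cells. The dual-targeted mean combined 771 in the clones, or 65.5% of wildtype, with 1084 in the reverse line, or 92.1%. In the authors' deposited table Brpf3 fell in the clones, at -0.52 ± 0.21 (DESeq2 adjusted p = 0.0305). Over all 3 dual-targeted lines it stood at -0.35 ± 0.20 (adjusted p = 0.131), and over single-targeted lines at -0.11 ± 0.19 (adjusted p = 0.677), in the authors' deposited tables. Whether the clones differed from the other line was not tested. Brpf1 had 640, 596 and 774 counts in the 3 groups, with 0.23 ± 0.17 (adjusted p = 0.302) in the authors' deposited table for dual-targeted lines.

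Sequence upstream of the start is shown for the called members where the RefSeq promoter window (GRCm38.p6) could be printed up to the first exon of a protein-coding gene. That was the case for Hdac11, chr6:91156565-91156664, and Brpf3, chr17:28800876-28801089, both on the plus strand. Capitals mark each GC box (GGGCGG on either strand).
Hdac11: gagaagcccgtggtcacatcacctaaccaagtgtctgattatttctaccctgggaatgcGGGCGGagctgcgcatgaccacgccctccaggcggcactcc
Brpf3: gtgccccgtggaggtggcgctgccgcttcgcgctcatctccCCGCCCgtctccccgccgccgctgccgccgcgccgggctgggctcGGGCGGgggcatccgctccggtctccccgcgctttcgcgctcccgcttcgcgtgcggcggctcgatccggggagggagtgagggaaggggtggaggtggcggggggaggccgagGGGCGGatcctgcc
The Hdac11 stretch has 1 GC box in 100 bases, and 10.5% of 32851 promoter windows trimmed to that length hold one. It also holds 1 NRF1 core motif (GCGCATG), found in 0.755% of those windows. Its GC content is 60% against a median of 50%, with 6 CpG against 2. The Brpf3 stretch has 3 GC boxes in 214 bases (27.6% of windows of that length hold at least 1), a GC content of 79.0% against 51.9%, and 32 CpG against 5. The 534-base overlap named above covers the annotated start of Brpf3, so noncoding RNA of the opposite strand is annotated there. No CCAAT box (CCAAT), TATA box (TATAAA), E box (CACGTG), ETS site (CCGGAAG) or cyclic AMP response element (TGACGTCA) was found on either strand in these stretches. The motifs were matched by letters only and describe the sequence, with no measure of binding. In all, 35 of the 40 members had a RefSeq promoter entry.

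Single-targeted lines were compared with wildtype to ask what 2 mutant alleles in 1 of the genes do. In the authors' deposited table DESeq2 called 0 of 40 members, against 2.96% of 15030 genes (1.49% higher and 1.47% lower, and 3.32% with a mean count of at least 50). At an unadjusted p under 0.05, 1 member was higher and 3 were lower, beside 12.4% of genes. Median log2 fold change was -0.03 for the members and 0.0014 for all genes. The interval of the fold change lay within 2-fold for 39 of 40 members, the exception being Hdac11, and for 94.0% of all genes. Shrinkage differs between comparisons. The SE of Hdac9 was 0.17 here and 0.39 in dual-targeted lines against wildtype, although fewer libraries were compared here. The count within 2-fold therefore does not bound the unshrunken changes.

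Dual-targeted lines were also set directly against single-targeted lines, which asks whether 3 mutant alleles, spread over both genes, goes with a difference from 2 in the same gene. DESeq2 called 0 of 39 members with an adjusted p (Hdac9 had none), against 7.06% of 13141 genes (4.37% higher and 2.69% lower, and 7.77% with a mean count of at least 50). At an unadjusted p under 0.05, 3 members were higher (Brd2, Hdac1 and Sirt6) and 3 were lower (Sirt3, Sirt4 and Kat6b), beside 20% of genes. The median was 0.00 for the members and 0.0014 for all genes, with 20 positive and 20 negative values. For 38 of 40 members, and for 87.4% of all genes, the interval of the shrunken fold change lay within 2-fold.

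The 2 clones of H3f3a A/A H3f3b WT/A were compared with wildtype in a table of their own, which shares its libraries with the dual-targeted comparison. Here 3 members fell (Hdac11, Sirt3 and Brpf3) and 0 rose, against 19.3% of 15640 genes called (9.05% higher and 10.3% lower, and 21.4% in either direction with a mean count of at least 50). At an unadjusted p under 0.05 the DESeq2 table held 1 member higher and 5 lower, beside 30.4% of genes. The authors' deposited table gave -1.01 ± 0.34 for Hdac11 (DESeq2 adjusted p = 0.00362) and -0.59 ± 0.23 for Sirt3 (adjusted p = 0.0209). By rebuilt means, the clones and the reverse line lay close together for Sirt3 (239 and 256 counts) and Hdac1 (595 and 597). They lay furthest apart for Hdac9 (13.2 counts in the clones), a difference of -0.67 on the log2 scale, and Sirt5 (93.3 and 63.6), 0.55 on the log2 scale. These differences set 2 libraries against 1 and have no test.

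**Figure D3:**
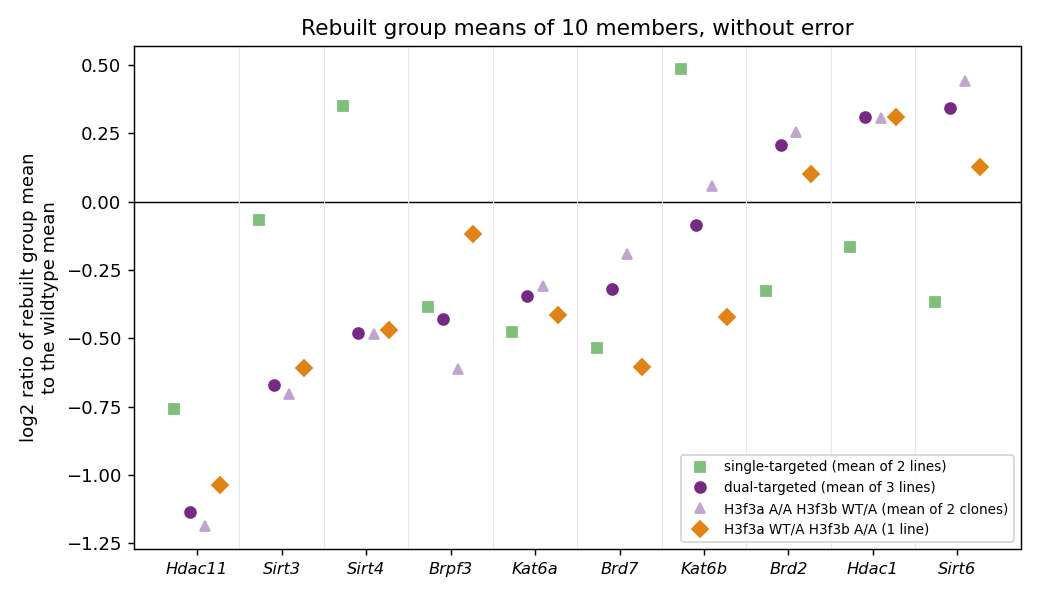
Log2 ratio of each rebuilt group mean to the wildtype mean (y axis) for the 10 members that were called in any table or had an unadjusted p under 0.05 in the single-targeted comparison or in dual-targeted against single-targeted lines (x axis). Squares are single-targeted lines, circles dual-targeted lines, triangles the 2 clones and diamonds the other dual-targeted line. Hdac11 lies below 0 in every group, Sirt3 near 0 only in single-targeted lines, and Hdac1, Brd2 and Sirt6 above 0 in dual-targeted and below 0 in single-targeted lines, relative to the median gene.

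Across the members, rebuilt ratios to wildtype had a median of -0.07 in single-targeted and -0.05 in dual-targeted cells on the log2 scale, where the scaling sets the median gene at 0. Their interquartile range was 0.32 in single-targeted and 0.58 in dual-targeted cells, against 0.44 and 0.66 for all genes with a mean count of at least 50. Members and all genes were not matched for count, so the narrower ranges cannot be read as a trait of the members.

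Gene length goes with the fold change over all genes in these tables, and the members showed the same sign of relation. In dual-targeted lines against wildtype, Spearman's rho between log2 fold change and gene length was -0.214 over the 40 members and -0.293 over 10039 genes, which all share the same libraries. Of the 20 shorter members (up to 27346 bases) 12 had a positive log2 fold change, with a median of 0.10 in the authors' deposited table. Of the 20 longer members (from 29708 bases) 5 were positive, with a median of -0.09. Genes of like length had medians of 0.06 and -0.09. In single-targeted lines rho was 0.2 over the members and 0.162 over 10087 genes. Hdac11 and Sirt3, at 18028 and 18644 bases, are among the shorter members and lay below that trend.

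**Figure D4:**
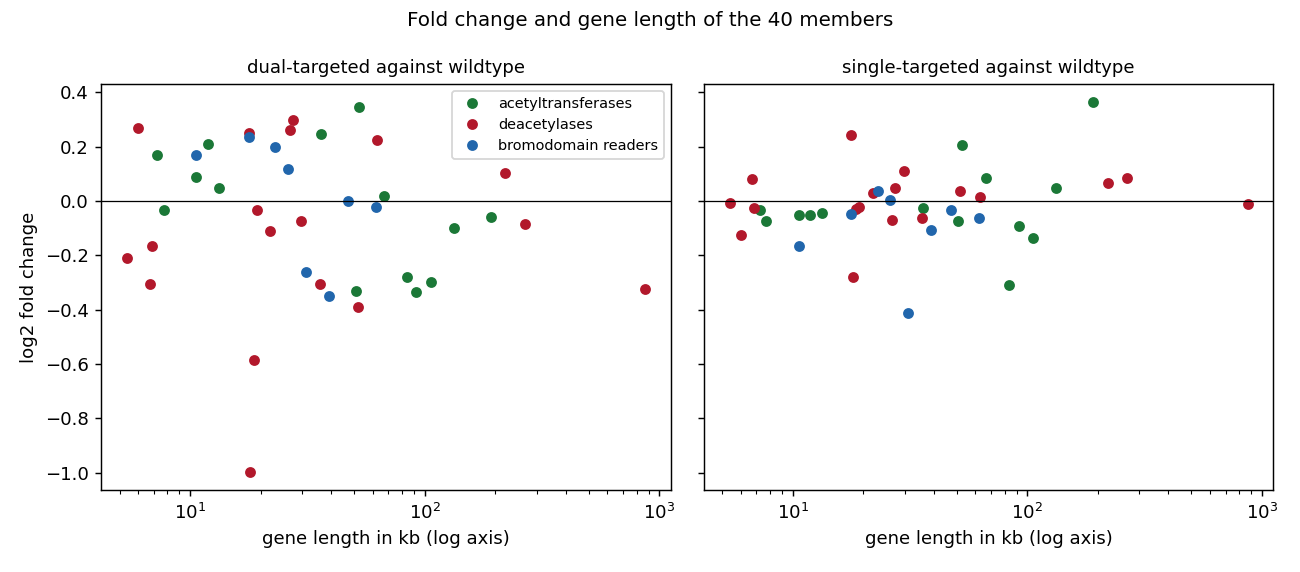
Log2 fold change in the authors' deposited tables (y axis) over gene length in kb (x axis, log scale) of the 40 members, for dual-targeted and for single-targeted lines against wildtype, coloured by subgroup. In the first panel 12 of the 20 shorter and 5 of the 20 longer members lie above 0, and the lowest points are Hdac11 and Sirt3.

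A wider list of 119 genes held 50 under acetyltransferase complex subunits, 39 under deacetylase complex subunits and 30 under other acetyl-lysine readers. The first sublist also holds Ncoa1, Ncoa2, Ncoa3, Gtf3c4, Elp3, Naa40 and Naa60, which are acetyltransferases or coactivators and not subunits of the members' complexes. Of the 117 in the dual-targeted table, 14 rose and 7 fell, with a median log2 fold change of -0.01. By sublist 8 rose and 1 fell of 50 acetyltransferase subunits, 3 rose and 3 fell of 38 deacetylase subunits, and 3 rose and 3 fell of 29 other readers. In single-targeted lines 1 rose and 1 fell of 115 tested. In dual-targeted against single-targeted lines 7 were higher and 3 lower of 115, and in the clones 11 rose and 8 fell of 116. Among all genes tested, 20.9% were called in dual-targeted lines (10.8% higher and 10.1% lower) and 2.96% in single-targeted lines. The share was 7.06% in dual-targeted against single-targeted lines and 19.3% in the clones. Whether the list or its sublists differ from these shares was not tested.

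Among acetyltransferase subunits, the rises with the smallest adjusted p in dual-targeted lines were those of Morf4l2, Ruvbl1, Ruvbl2 and Rbbp7. Other TIP60 subunits lay on both sides of wildtype by rebuilt means, which carry no error. Ep400 had 2730 in wildtype and 2278 in dual-targeted cells, and Vps72 297 and 253. Epc2 had 618 and 778, and Yeats4 227 and 273. Morf4l2, a relative of the TIP60 subunit MRG15, rose by 1.11 ± 0.23 on the log2 scale in the authors' deposited table (DESeq2 adjusted p = 3.93e-06). Ruvbl1 and Ruvbl2, the paired ATPases of TIP60 and INO80, rose by 0.71 ± 0.20 (adjusted p = 0.00112) and 0.84 ± 0.23 (adjusted p = 5.77e-04) in the authors' deposited table. Their rebuilt means went from 346 in wildtype and 317 in single-targeted to 594 in dual-targeted cells for Ruvbl1, and from 339 and 336 to 643 for Ruvbl2. Rbbp7, a histone chaperone found with Hat1 and in deacetylase complexes, rose by 0.60 ± 0.16 (adjusted p = 9.57e-04) in the authors' deposited table.

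Among deacetylase subunits, the NuRD subunits Chd4 and Mbd3 rose. The catalytic Hdac1 and Hdac2 did not pass the threshold, with values that were also positive, and a difference from Chd4 was not tested. Other NuRD subunits lay on both sides of wildtype by rebuilt means, which carry no error. Mta1 had 755 in wildtype and 570 in dual-targeted cells, Gatad2a 1641 and 1264, and Mta2 828 and 900. Chd4, the NuRD remodelling ATPase, rose by 0.67 ± 0.16 (adjusted p = 2.13e-04) and Mbd3, a NuRD scaffold, by 0.67 ± 0.26 (adjusted p = 0.0164) in the authors' deposited table for dual-targeted lines. Rcor2, a CoREST scaffold, rose by 0.68 ± 0.25 (adjusted p = 0.0123) in the authors' deposited table. Sap18, a Sin3 subunit, fell in both groups in the authors' deposited tables, at -0.66 ± 0.22 in dual-targeted (adjusted p = 0.00567) and -0.80 ± 0.25 in single-targeted lines (adjusted p = 0.00522), and it lies on chromosome 14.

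Among other readers, Baz1a, the large subunit of the ACF remodeller, rose by 1.50 ± 0.24 on the log2 scale (adjusted p = 7.43e-09) in dual-targeted and by 0.67 ± 0.29 (adjusted p = 0.0467) in single-targeted lines in the authors' deposited tables. Its rebuilt means were 198 in wildtype, 358 in single-targeted and 585 in dual-targeted cells. Baz2b fell, at -1.26 ± 0.20 (adjusted p = 2.75e-09) in the authors' deposited table, from 1101 counts in wildtype to 823 in single-targeted and 440.2 in dual-targeted cells. Dpf1, a BAF subunit, rose by 0.72 ± 0.25 (adjusted p = 0.00763) in the authors' deposited table.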

How the data were processed

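TT-seq was made from 8 libraries of E14 cells. Per the submitters' processing notes the tools were STAR, featureCounts, SAMtools, deepTools and DESeq2, and the builds GRCm38.p6 and mm10; versions, the strand setting and the shrinkage method are not given in the sources used here. Per the file headers, the deposited mean normalized count is a signal per gene averaged over the libraries of a table. The log2 fold changes and SEs were deposited by the authors and are shrunken, as their values show, differently in each table, so fold sizes cannot be set strictly against each other across tables. The p-values and adjusted p-values are the authors' own, and an empty one was kept empty. No count per library was used, so depth and its precision are unknown except through the SE. The labels call wildtype libraries biological replicates, and the spread within mutant groups is between lines.

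Calls used the deposited adjusted p under 0.05. Positive means higher in the mutant, or in the dual-targeted, group, since rebuilt group means had the same sign for 100% of called genes with a mean count of at least 50. Group means were solved from the 4 mean counts and the numbers of libraries, with scales of 0.984, 1.06 and 0.957 that set the median gene of each group equal to wildtype. The 3 comparisons with wildtype share the wildtype libraries. Members, lists and tests were chosen with earlier results of these data known. Named were every called member, Ep300, Crebbp, Hdac1, Hdac2, Brd2 and Brd9, fixed paralogue pairs, and up to 4 called genes per wider sublist by adjusted p (1 of them is not reported here); others were named after their values were seen. Positions came from GENCODE mouse release 21 (GRCm38), which held 98.6% of symbols. The wider list is 119 genes, and its alternatives were chosen after seeing the data. The rebuild and the length adjustment were tested on simulated data. For the rebuild these data held no noise and had the median gene of each group already equal to wildtype. That test therefore cannot check the scale that joins the tables or the effect of noise on the means. Computations ran in Python 3.11.15 with scipy 1.17.1, pandas 2.3.3 and numpy 2.4.6, and figures in matplotlib 3.10.9.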

Additional observations from a re-analysis of the deposited data

Results flagged for a closer look

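No member of the 40 differed between dual-targeted and single-targeted lines at an adjusted p under 0.05 (DESeq2, 6 at an unadjusted p under 0.05). Of the wider list, 10 of 115 did (7 higher and 3 lower), beside 7.06% of all genes. The test was the authors' own, of dual-targeted against single-targeted lines, and whether the lists differ was not tested. Values are log2 fold changes from the authors' deposited table, positive where dual-targeted lines were higher. Ruvbl1 stood at 0.80 ± 0.25 (adjusted p = 0.00734) and Ruvbl2 at 0.83 ± 0.26 (adjusted p = 0.00593) in the authors' deposited table. Jade2 stood at 1.397 ± 0.36 (adjusted p = 0.00103), Jade1 at 0.48 ± 0.17 (adjusted p = 0.0197) and Ing5 at 0.54 ± 0.22 (adjusted p = 0.0330) in the authors' deposited table. Mbd3 stood at 1.17 ± 0.34 (adjusted p = 0.00337) and Chd4 at 0.46 ± 0.18 (adjusted p = 0.0347) in the authors' deposited table. Baz2b was lower, at -0.76 ± 0.25 (adjusted p = 0.00971), as were Brwd1, at -0.57 ± 0.18 (adjusted p = 0.00903), and Phf10, at -0.58 ± 0.24 (adjusted p = 0.0327), in the authors' deposited table. The 2 single-targeted lines and 3 dual-targeted lines gave 1 library each.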

How the results depend on the processing

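Hdac11 and Sirt3 were called lower in dual-targeted lines, and Hdac11 in the clones, under every alternative tried. No called member changed direction. Some medians close to 0 did change sign. With the length trend removed, the median log2 fold change of the wider list went from -0.04 to 0.01 in the clones. It went from -0.01 to 0.01 in dual-targeted lines against wildtype. At a threshold of 0.01 the clones had 1 lower member (Sirt3 and Brpf3 had adjusted p of 0.0209 and 0.0305). At 0.1, dual-targeted lines against wildtype had 1 member higher and 4 lower, and against single-targeted lines 3 higher and 2 lower. Shares of all genes called under these other settings were not worked out. The counts of members and of the wider list given here therefore cannot be read against all genes. With the gene length trend removed, Hat1 was called higher in dual-targeted lines (1 member, adjusted p = 0.0492), and Sirt4 lower against single-targeted lines (1 member, adjusted p = 0.0330). For the wider list, chosen after seeing the data, a threshold of 0.01 left 9 higher and 2 lower in dual-targeted lines, 0 higher in single-targeted, 4 higher against single-targeted and 6 higher and 2 lower in the clones. A threshold of 0.1 gave 11 lower, 5 lower in single-targeted and 14 higher against single-targeted lines. A log2 fold change of at least 0.5 left 3 lower in dual-targeted lines. Without chromosomes 8, 14 and Y, 0 were lower in single-targeted lines and 5 in the clones. With the length trend removed, 4 were lower in dual-targeted lines, 0 higher and 2 lower in single-targeted lines, and 5 lower in the clones. Group means depend on the scale that joins the tables: with none, the members' median log2 ratio was -0.53 in the reverse dual-targeted line, where that of all genes was -0.47. With scales set by table sums it was -0.58 in dual-targeted cells, -0.52 in the clones and -0.70 in that line. The medians of all genes then moved to -0.54, -0.50 and -0.65, so the members stood at -0.04, -0.02 and -0.05 relative to all genes. For these shifts the cause was not tested. No paired analysis was possible because the tables hold no values per library, and for the same reason no replicate could be left out.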
